A study of Mus musculus with 12 samples.

Results

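The genes described here are 34 members of the pathways that build cholesterol and fatty acids, followed in the stromal vascular fraction (SVF) of mouse white fat. They were taken from a fixed list of 19 sterol synthesis genes, 10 fatty acid synthesis genes and 5 genes that regulate both pathways through the sterol regulatory element binding proteins (SREBPs), out of 31053 genes counted in every library. SVF cells of epididymal (eWAT) and inguinal (iWAT) white adipose tissue were profiled by droplet 3′ single-cell RNA-seq in 12 libraries, 6 per depot. The lean group, WT-Veh, was C57BL/6J on vehicle, ob/ob-Veh were obese Lepob/Lepob mice on the same vehicle, and ob/ob-Rosi were Lepob/Lepob mice given rosiglitazone (Rosi), an agonist of the nuclear receptor PPARγ, at 30 mg/kg, 2 doses a day for 3 days. All mice were males of 12 weeks, and each group had 2 libraries per depot, labelled biological replicates. Lepob/Lepob mice make no working leptin in any cell, so the genotype is not limited to fat, and no lean mice given Rosi were among these libraries. Most mature adipocytes float off when the SVF is pelleted, so the adipocyte, the cell best known for fat synthesis, was not itself sampled.

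Cells make cholesterol from acetyl-CoA through the mevalonate pathway and a long series of sterol-modifying enzymes, and fatty acids from acetyl-CoA through acetyl-CoA carboxylase and fatty acid synthase. Both pathways are controlled by SREBPs, transcription factors held in the endoplasmic reticulum by the escort protein SCAP and the retention proteins INSIG1 and INSIG2 while sterols are plentiful. When sterols run low, SCAP carries the SREBPs to the Golgi, where proteases release the part that enters the nucleus and binds sterol response elements (SREs) in promoters, usually beside binding sites for NF-Y and Sp1. SREBP-2, from Srebf2, mainly drives the cholesterol genes and SREBP-1c, from Srebf1, mainly the fatty acid genes; Srebf1 is in addition a target of the oxysterol receptors LXR. In white fat these enzymes are best known from adipocytes, while macrophages and endothelial cells handle much cholesterol that they take up or export.

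The promoters of 1 gene of each pathway are shown, because both genes carry results below: Hmgcs1, the HMG-CoA synthase that starts the mevalonate pathway, and Fasn, fatty acid synthase. The sequences are the 250 bases before each RefSeq gene start (GRCm38.p6), 5′ to 3′ on the gene's own strand, at chr13:119690101-119690350 on the plus strand for Hmgcs1 and chr11:120824548-120824797 on the minus strand for Fasn, with motif matches in capitals.
Hmgcs1: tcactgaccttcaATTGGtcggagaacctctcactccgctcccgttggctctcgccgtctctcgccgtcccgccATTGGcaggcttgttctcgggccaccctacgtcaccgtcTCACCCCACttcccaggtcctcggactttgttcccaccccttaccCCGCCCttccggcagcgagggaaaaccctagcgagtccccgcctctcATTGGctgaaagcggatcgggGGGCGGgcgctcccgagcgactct
Fasn: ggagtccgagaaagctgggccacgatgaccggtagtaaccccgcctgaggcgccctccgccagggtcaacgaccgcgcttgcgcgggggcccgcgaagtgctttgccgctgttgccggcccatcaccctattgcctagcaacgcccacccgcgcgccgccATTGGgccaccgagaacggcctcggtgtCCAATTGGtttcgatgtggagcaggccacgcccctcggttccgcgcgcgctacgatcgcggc
In Hmgcs1 the capitals mark 1 match to the SRE letters TCACNCCAC, 3 to the NF-Y box CCAAT and 2 to the GC box GGGCGG, each searched on both strands. In Fasn they mark 3 NF-Y boxes, 2 of which overlap in one palindrome, and neither of the other 2 motifs was found. Over the promoter windows found for 27 of the 34 members, which span 250 bases before to 50 after the start, 22 genes held an NF-Y box and 22 a GC box. The NF-Y box stood in 63.9% of the members' 36 windows against 37.4% of all 32851 RefSeq windows, and the GC box in 72.2% against 35.7%. The exact SRE letters were found in 1 member, Hmgcs1, and in 1.24% of all windows. Such matches describe letters in a window and not bound sites. Fads1, Fdft1, Fdps, Scd1, Scd2, Sqle and Stard4 had no window in the table used.

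The 12 libraries kept 6472 to 17500 cells each, 126095 in all, with a median of 1132 to 4961 unique molecular identifiers (UMIs, one per captured RNA molecule) per cell. Cells were clustered without the 34 members, and 4 classes were followed in both depots: progenitor-like and preadipocyte-like adipose progenitor cells (APCs), perivascular macrophage-like (PVM-like) cells and endothelial-like (EC-like) cells. Markers matched the names of the EC-like and PVM-like cells: the summed EC markers (8 genes, among them Pecam1 and Cdh5) stood at 6015.8 to 8308 counts per 1000000 UMIs (CPM) in EC-like cells of both depots and at no more than 117.4 in the other 3 classes, and the summed PVM markers (8 genes, among them Lyve1 and Cd163) at 8649 to 12119 in PVM-like cells and at most 2573 elsewhere. The 8 APC markers stood at 23553 to 64085 CPM in both APC classes and at most 3827 in the PVM-like and EC-like cells, and the APC sublabels are relative. In eWAT 10 progenitor markers (such as Dpp4 and Pi16) stood at 2705 to 5168 CPM in progenitor-like and 298.5 to 1001 in preadipocyte-like cells, but the progenitor-like cells of WT-Veh and ob/ob-Rosi held more of the 10 preadipocyte markers (4273 to 6053 CPM) than of their own, and that list, which includes Apoe and Cd36, was higher still in PVM-like cells (12954 to 42880). In iWAT the progenitor-like cells held more of the progenitor list (8553 to 11944 CPM) than of the preadipocyte list (782.8 to 1309). In both depots the cluster with the largest share of the progenitor-like, preadipocyte-like or PVM-like cells of the ob/ob-Veh libraries was another one than in the other groups (5, 8 and 22 in eWAT and 10, 7 and 20 in iWAT; the APC numbers are subclusters). In eWAT it held 98.7 and 93.2% of the progenitor-like, 39.95 and 44.5% of the preadipocyte-like and 96.5 and 98.2% of the PVM-like cells of these libraries, and in iWAT from 52.2 to 99.25% of a class. The EC-like cells of eWAT lay in cluster 6 in all 6 libraries, and those of iWAT mostly in cluster 14, or in clusters 3 and 10 in WT-Veh. The iWAT library WT-Veh 1 stood apart, with the lowest median UMIs (1132), 8350 of its cells in one cluster that received no name, and only 129 progenitor-like and 239 preadipocyte-like cells. Lep, whose transcript is still made from the ob allele, gave 3.96 to 36.4 UMIs per 100 Adipoq UMIs in the ob/ob-Veh libraries, 20.1 to 42.5 in WT-Veh and 140.7 to 390.1 in ob/ob-Rosi; its level alone does not give the genotype, and groups are therefore named as labelled. Any pair of the 12 libraries shared at most 99 cell barcodes (1.05% of the smaller library).

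For each library and class the UMIs of all cells were summed, from 110 to 5084 cells and 312020 to 15812500 UMIs, and levels are given as CPM of that sum. In such sums, fewer expressing cells and less RNA per cell cannot be told apart. Groups were compared with edgeR's quasi-likelihood test over all genes of a class, and a gene was called where its p, adjusted by Benjamini-Hochberg, did not exceed 0.05 and it changed by 1.1-fold or more. The ob/ob effect is ob/ob-Veh against WT-Veh and the Rosi effect is ob/ob-Rosi against ob/ob-Veh. Both use the ob/ob-Veh libraries, so opposite signs of the 2 effects are not independent of each other. With 2 libraries a group, an exact permutation test of a single gene could not give a p below 0.333, and calls rest on the spread shared across genes. A fit that leaves out 1 library keeps 1 in its group, so its p-values hold no spread between mice of that group.

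The classes differed in which synthesis genes they held, and most of the fatty acid genes were highest in the APCs. Averaged over the 6 libraries of a depot, 12 of the 34 members had their highest mean level in preadipocyte-like cells of iWAT, 5 in preadipocyte-like cells of eWAT, 5 in progenitor-like cells of iWAT and 4 in progenitor-like cells of eWAT. The widest range was that of Scd2, a stearoyl-CoA desaturase that makes monounsaturated fatty acids, whose mean level was 32.5-fold higher in progenitor-like cells of iWAT (129.5 CPM) than in PVM-like cells of eWAT (3.99 CPM). Fads2, the delta-6 desaturase of polyunsaturated fatty acids, spanned 22.8-fold and Me1, the malic enzyme that supplies NADPH for lipid synthesis, spanned 22.0-fold, both again lowest in PVM-like cells. The ranking of the iWAT classes rested in part on WT-Veh 1: without it, 6 members were highest in preadipocyte-like and 3 in progenitor-like cells of iWAT, 7 in preadipocyte-like and 9 in progenitor-like cells of eWAT, and the ranges of Scd2, Fads2 and Me1 were 30.6-, 31.1- and 20.7-fold. Macrophages were not low throughout. Insig1 was highest in PVM-like cells, with means of 99.6 CPM in iWAT and 79.1 in eWAT against 32.1 to 67.4 in the other classes.

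In EC-like cells Stard4, a cytosolic sterol carrier, and Elovl5, an elongase of polyunsaturated fatty acids, stood well above their levels in the other classes. Srebf1 lay close in EC-like and progenitor-like cells, with means of 31.9 and 30.8 CPM in eWAT and 40.7 and 37.9 in iWAT. Elovl5 averaged 122.2 CPM in EC-like cells of eWAT and 150.3 in those of iWAT, against 24.3 to 45.2 in the other classes. Stard4 averaged 32.5 and 42.9 CPM in EC-like cells against 6.12 to 9.63 elsewhere. The narrowest ranges were those of Ebp, a sterol isomerase, at 1.43-fold and of Acly, the citrate lyase that supplies cytosolic acetyl-CoA, at 1.49-fold. These differences between classes are descriptions, since the cells were sorted into classes by their other genes, and the means of iWAT include WT-Veh 1 unless stated otherwise.

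**Figure D1:**
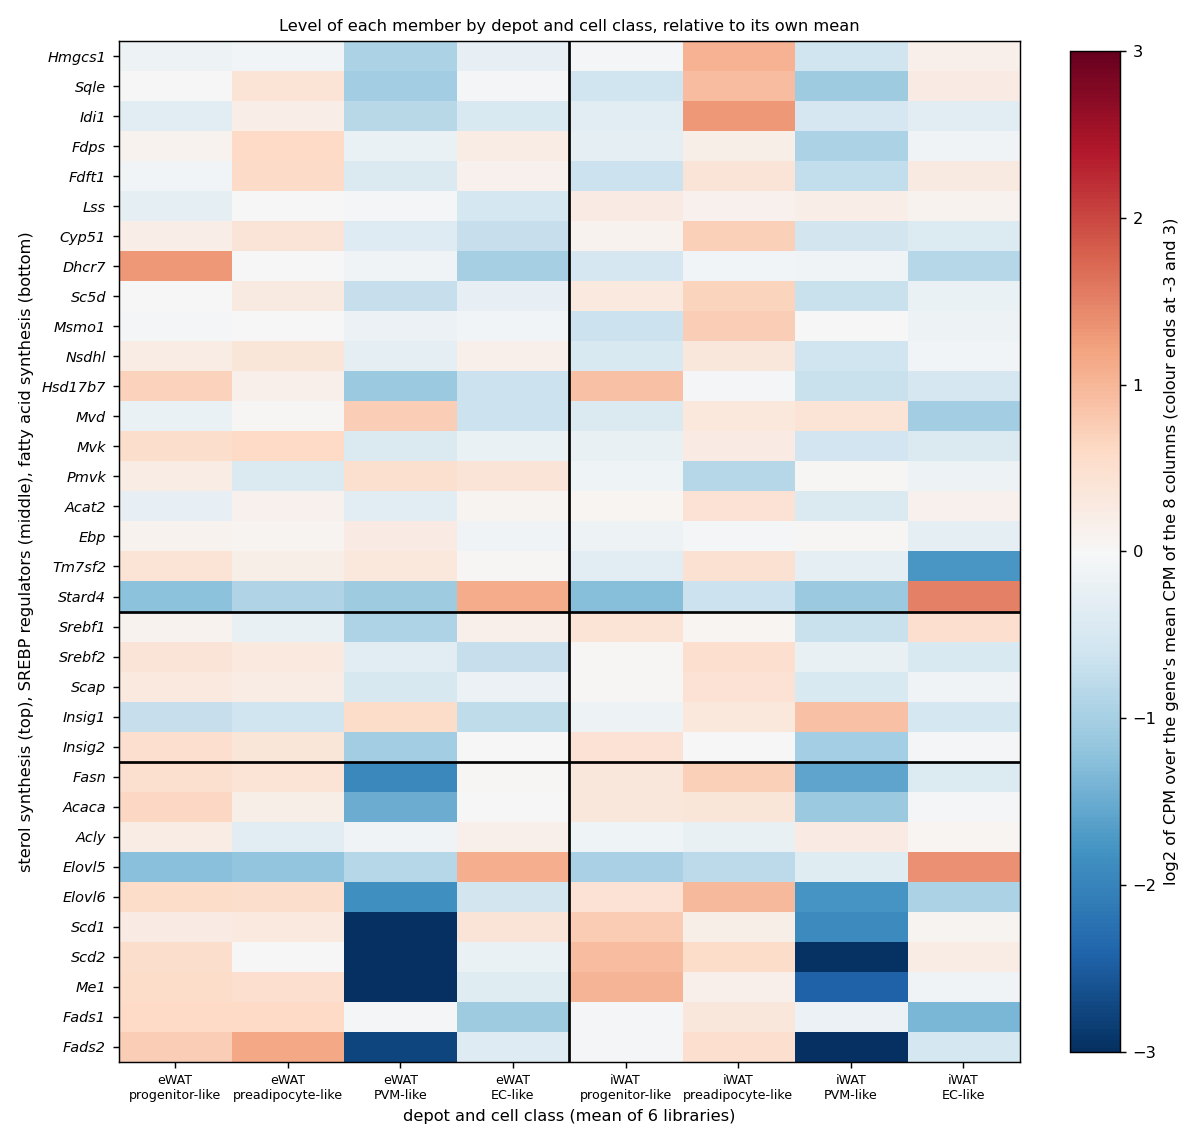
Relative level of each of the 34 members in the 4 classes of each depot: colour is log2 of the mean CPM over 6 libraries divided by the gene's mean of the 8 columns, clipped at -3 and 3, and rows are genes by role. Scd2, Me1, Scd1 and Fads2 are blue (low) in the PVM-like columns, and Elovl5 and Stard4 are red (high) in the EC-like columns.

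Between the groups, few members passed the test in edgeR without a replicate block. Of the 34, from 27 to 34 passed the filter on low counts in a given class. In eWAT the ob/ob effect gave 6 member-by-class calls, 2 higher and 4 lower: Scd1 and Fasn rose in EC-like cells, Srebf1 fell there, Fdps and Scd1 fell in preadipocyte-like cells and Fdps fell in PVM-like cells. Over all genes tested, 5.2% were called in progenitor-like, 7.77% in preadipocyte-like, 3.39% in PVM-like and 4.37% in EC-like cells; the members' 0 of 27, 2 of 34, 1 of 33 and 3 of 30 are to be read against these shares. The eWAT Rosi effect gave 4 calls, all lower: Scd1 and Fasn in EC-like, Scd1 in PVM-like and Me1 in preadipocyte-like cells. Its background was 4.75% in progenitor-like, 8.3% in preadipocyte-like, 2.21% in PVM-like and 3.23% in EC-like cells, beside 0 of 27, 1 of 34, 1 of 33 and 2 of 30 members.

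In iWAT all calls were in PVM-like cells: Fdps fell in the ob/ob effect and rose in the Rosi effect, and Me1 fell in the Rosi effect. The share of all genes called in the iWAT ob/ob effect was 1.4% in progenitor-like, 0.703% in preadipocyte-like, 5.4% in PVM-like and 1.03% in EC-like cells, and in the Rosi effect 3.2, 1.22, 10.5 and 0.575% in the same order. The members' share in PVM-like cells, 1 of 33 and 2 of 33, lay below or near those backgrounds. At an unadjusted p below 0.05 there were 28 of 124 member-by-class tests in the ob/ob effect of eWAT (22.6%, beside 22% of all gene-by-class tests) and 27 in its Rosi effect (21.8% beside 20.3%). In iWAT there were 22 of 132 (16.7% beside 20.1%) and 18 (13.6% beside 23.8%). DESeq2 on the same sums called 10 and 6 member-by-class results in eWAT, where it called 6.77 and 6.37% of all tests, and 5 and 6 in iWAT, where it called 6.08 and 8.1%. Without the iWAT library WT-Veh 1 the fit holds 1 lean library and no spread between lean mice of iWAT. Its values are therefore given below as effect sizes.

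The labels do not say that a replicate number marks a shared batch or mouse, and the fits above therefore have no replicate block. In eWAT the deviations of same-numbered libraries correlated above 0.1 in all 12 pairs of groups by class (0.143 to 0.447), and in iWAT in 6 of 12 (0.0546 to 0.71). In iWAT WT-Veh and ob/ob-Rosi correlated at 0.361 (EC-like) to 0.71 (PVM-like), but pairs with ob/ob-Veh at 0.0546 to 0.182 only. In progenitor-like, preadipocyte-like and PVM-like cells the pairs with ob/ob-Veh lay at 0.0917 or below, and in EC-like cells at 0.182 and 0.164. The iWAT ob/ob-Veh libraries thus shared less of the deviations that same-numbered libraries of the other groups shared. The part of these deviations in the iWAT effects was not tested. With the number as a block, edgeR called 16 members by class in the ob/ob effect of eWAT and 15 in its Rosi effect, of 124 tests each, beside 12.8 and 12% of all gene-by-class tests. In iWAT it called 7 and 9 of 132, beside 7.21 and 12.1%. The members' shares thus lay near or below those of all genes, and no call made without the block was lost. In the ob/ob effect of eWAT the calls gained were Cyp51, Mvk and Pmvk (lower) and Acly and Elovl6 (higher) in preadipocyte-like cells, Pmvk and Sqle (lower) and Scd1 (higher) in PVM-like cells, and Me1 and Stard4 (higher) in EC-like cells. In its Rosi effect they were Fdps (higher) and Acly, Elovl6, Hsd17b7, Sc5d and Stard4 (lower) in preadipocyte-like cells, Fdps and Pmvk (higher) in PVM-like cells, and Ebp and Scd2 (higher) and Me1 (lower) in EC-like cells.

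**Figure D2:**
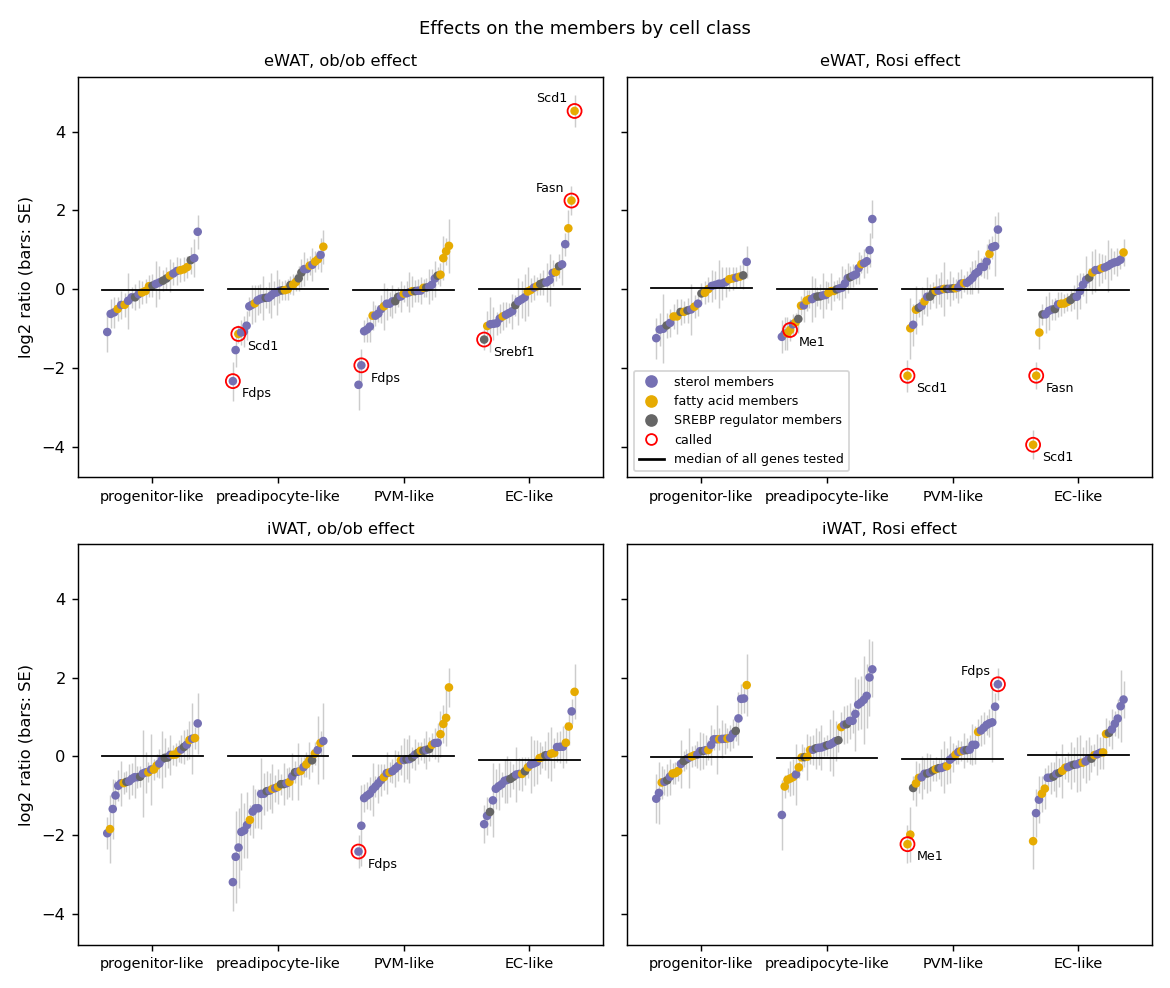
Fitted log2 changes of all tested members in the 4 classes of each depot, for the ob/ob effect and the Rosi effect, with bars for the SE, red rings for called members and a line at the median of all genes tested. Scd1 and Fasn in EC-like cells of eWAT lie farthest from 0 on the high side of the ob/ob effect (4.52 and 2.25) and Scd1 there lies farthest on the low side of the Rosi effect (-3.95).

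Among the sterol enzymes, Fdps stood out. Fdps encodes farnesyl diphosphate synthase, which makes the farnesyl chain used for sterols and for protein prenylation, and in all 8 depot-class pairs its fitted ob/ob effect lay below 0, from -0.75 to -3.19. In preadipocyte-like cells of eWAT its level was 40.9 and 12.5 CPM in WT-Veh, 4.81 and 6.52 in ob/ob-Veh and 18.0 and 18.8 in ob/ob-Rosi. Both ob/ob-Veh libraries lay below all the others. Fdps fell there by 2.33 on the log2 scale in the ob/ob effect (SE 0.496, edgeR adjusted p = 0.0178), and the Rosi effect of 1.78 did not pass (adjusted p = 0.0512), but did with the replicate block (1.79, adjusted p = 0.00389). Levels in the PVM-like cells of eWAT were 19.7 and 9.35, 3.99 and 4.21, and 8.04 and 13.9 CPM in the same order of groups, again with no overlap of ob/ob-Veh with the others. Markers of lipid-associated macrophages were lowest in ob/ob-Veh there too, at 2924 and 2991, 465.2 and 746.3, and 2598.5 and 3776.5 CPM. Their part in the Fdps values was not tested. The ob/ob effect of Fdps there was -1.93 (SE 0.424, adjusted p = 0.0397), while that of Rosi was 1.51 (adjusted p = 0.1, or 0.0432 with the block). The eWAT library WT-Veh 1 was the highest in both classes; without it the ob/ob effects were -1.14 (adjusted p = 0.134) and -1.27 (adjusted p = 0.24). The calls were lost as well without ob/ob-Veh 1 (-2.25, adjusted p = 0.105, and -1.91, adjusted p = 0.193) and without ob/ob-Veh 2 (-2.48, adjusted p = 0.0546, and -1.92, adjusted p = 0.147).

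Fdps in PVM-like cells of iWAT stood at 11.5 and 7.26 CPM in WT-Veh, 1.99 and 1.83 in ob/ob-Veh and 6.62 and 5.57 in ob/ob-Rosi, so the 3 groups did not overlap. It fell by 2.41 in the ob/ob effect (SE 0.408, adjusted p = 0.0178) and rose by 1.83 in the Rosi effect (SE 0.403, adjusted p = 0.0322). The ob/ob call was kept without either WT-Veh or ob/ob-Rosi library and lost without ob/ob-Veh 1 (-2.54, adjusted p = 0.162) or ob/ob-Veh 2 (-2.31, adjusted p = 0.128). The Rosi call was lost without ob/ob-Veh 1 (1.96, adjusted p = 0.239), ob/ob-Veh 2 (1.73, adjusted p = 0.152), ob/ob-Rosi 1 (1.75, adjusted p = 0.0832) or ob/ob-Rosi 2 (1.92, adjusted p = 0.159), and with cells thinned to 700 UMIs (2.05, adjusted p = 0.0552). These PVM-like cells were shallowest in ob/ob-Veh (median 1641 and 1617.5 UMIs against 2782.5 to 4693 in the other groups), whose libraries also had the highest median mitochondrial share of iWAT (9.05 and 8.06%). Markers of other cell types differed there too: 8 lipid-associated macrophage markers stood at 1358 and 1439 CPM in WT-Veh, 556.65 and 627.0 in ob/ob-Veh and 1665 and 1962 in ob/ob-Rosi, and APC markers, given below, were highest in ob/ob-Veh. The part of these in the Fdps values was not tested. In progenitor-like cells of iWAT the levels were 16.4 and 12.1, 4.43 and 2.92, and 11.7 and 7.35 CPM in the order of groups above, with an ob/ob effect of -1.95 that missed the threshold (adjusted p = 0.0543). In preadipocyte-like cells the ob/ob effect was -3.19 (adjusted p = 0.0784). Without the library WT-Veh 1, which left 1 lean library, the effects in these classes were -1.86 and -2.15.

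Fdps counts carry a limit of their own. The gene lies at chr3:89093588-89101959 on the minus strand of GRCm38, and in the annotation 1124 of its 4208 exon bases (26.7%), including 197 of the last 300 where 3′ reads fall, are shared with the read-through gene Gm43738. A read that matches both genes is counted for neither, and Gm43738 had 0 UMIs in eWAT and 1 in iWAT against 4861 and 2524 for Fdps. The values therefore count only part of the Fdps RNA. In eWAT the same contrast moved 2 other lists: 12 of 48 gene-by-class tests of tissue dissociation genes (such as Zfp36 and Egr1) rose and 13 of 28 of cell cycle genes (such as Birc5) fell in the ob/ob effect, and in the Rosi effect 16 of the former fell and 7 of the latter rose, where 5.29 and 4.77% of all gene-by-class tests were called. Their part in the results of Fdps and of the other members called in eWAT was not tested.

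The other sterol enzymes did not pass in any class in edgeR with all libraries, the filter on low counts and no block. DESeq2 called Cyp51 (-1.57, adjusted p = 0.00754) and Mvk (-1.12, adjusted p = 0.0323) in preadipocyte-like cells of eWAT in the ob/ob effect, as well as Sqle and Pmvk in classes given below. The median fitted ob/ob effect over the sterol members tested, Fdps included, was below 0 in all 8 depot-class pairs, beside medians over all genes of -0.0935 in EC-like cells of iWAT and within 0.0123 of 0 elsewhere. It was -0.13 in progenitor-like cells of eWAT, -0.23 in preadipocyte-like, -0.37 in PVM-like and -0.28 in EC-like cells, and in iWAT -0.43, -0.95, -0.42 and -0.45; the sign held in all 8 with DESeq2 and with library size alone as the scaling. Without the iWAT library WT-Veh 1 the iWAT medians were 0.03, -0.30, -0.06 and -0.23, so that the sign in progenitor-like cells turned. In preadipocyte-like cells of iWAT 17 of the 19 were below 0 in the ob/ob effect and 17 of 19 above 0 in the Rosi effect, with a median of 0.81; without WT-Veh 1 they were 13 and 17, with medians of -0.30 and 0.865. In these cells 1 library of each of those groups stood out. The summed level of the 19 genes in those cells was 785.2 and 242.1 CPM in WT-Veh, 185.4 and 227.1 in ob/ob-Veh and 489.1 and 254.8 in ob/ob-Rosi, so that WT-Veh 1 and ob/ob-Rosi 1 were high while WT-Veh 2 and ob/ob-Rosi 2 lay close to the ob/ob-Veh libraries. The PVM-like sums of eWAT were 277.0 and 235.0, 180.0 and 191.5, and 232.3 and 224.6 CPM, with no overlap between ob/ob-Veh and the other groups. The 6 EC-like sums of eWAT lay between 243.1 and 299.9 CPM, and the groups overlapped.

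**Figure D3:**
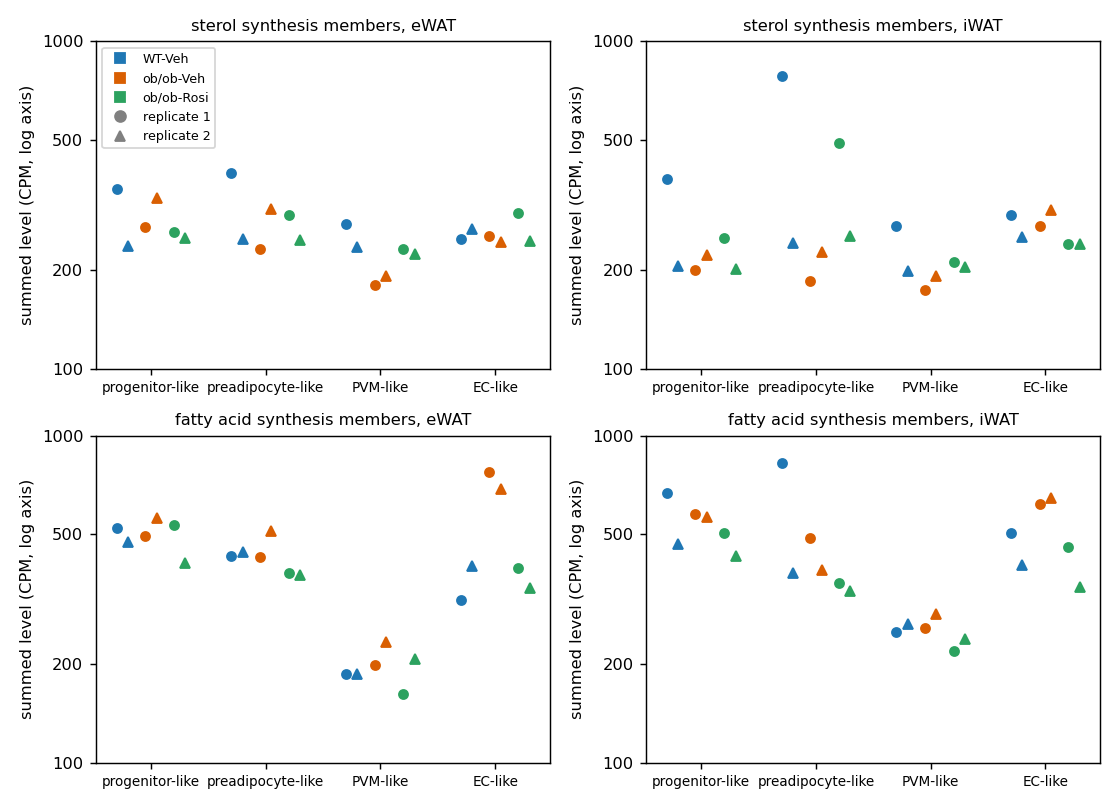
Summed CPM of the sterol and of the fatty acid members in each library on log axes, by class and depot, with 1 point per library coloured by group and shaped by replicate. The sterol sum of WT-Veh 1 in preadipocyte-like cells of iWAT (785.2 CPM) is the highest sterol point, and the fatty acid sums of ob/ob-Veh in EC-like cells of eWAT (771.9 and 687.6 CPM) lie above the other groups there.

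Hmgcs1 showed how the replicates differed. In preadipocyte-like cells of iWAT it was at 181.2 and 31.4 CPM in WT-Veh, 26.2 and 35.3 in ob/ob-Veh and 139.9 and 33.9 in ob/ob-Rosi. Replicates of one group thus differed more than the groups did, and no ob/ob or Rosi effect of Hmgcs1 passed in any class (adjusted p at least 0.305), although without the filter on low counts both passed in these cells. Without WT-Veh 1 its ob/ob effect in these cells was -0.067 and its Rosi effect 1.59. In eWAT its fitted ob/ob effects lay between -0.04 and 0.40 and its Rosi effects between -0.37 and 0.16. Sqle, the squalene epoxidase of sterol synthesis, followed the same libraries, with 53.9 and 4.21 CPM in WT-Veh, 4.07 and 4.73 in ob/ob-Veh and 19.5 and 4.09 in ob/ob-Rosi in preadipocyte-like cells of iWAT. Sqle in PVM-like cells of eWAT had 11.8 and 2.70, 1.33 and 1.55, and 2.98 and 2.69 CPM, an ob/ob effect of -2.43 that edgeR did not call (adjusted p = 0.0659) and DESeq2 did (adjusted p = 0.032), as did edgeR with the block (-2.20, adjusted p = 0.0218). For Sqle there, WT-Veh 1 lay farther from WT-Veh 2 than WT-Veh 2 did from ob/ob-Veh. Over the 8 depot-class pairs its ob/ob effects lay between -2.55 and -0.26; the lowest, in preadipocyte-like cells of iWAT, was 0.031 without WT-Veh 1.

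One enzyme that edgeR did not call without the block is named here after its values were seen. Pmvk, phosphomevalonate kinase of the mevalonate pathway, was lower in the fitted ob/ob effect in all 8 depot-class pairs (-1.51 to -0.13) and higher in the Rosi effect in all 8 (0.11 to 1.47), with no call in the same edgeR fits. The classes of a depot share their libraries and both effects share ob/ob-Veh, so these signs are not independent of each other. How many of all genes hold the same signs was not counted. With the block, edgeR called Pmvk lower in preadipocyte-like and PVM-like cells of eWAT in the ob/ob effect. It called Pmvk higher in PVM-like cells of eWAT in the Rosi effect. DESeq2 called it in PVM-like cells of eWAT in the ob/ob effect (-1.055, adjusted p = 0.0474) and in progenitor-like and PVM-like cells of iWAT in the Rosi effect (1.47, adjusted p = 0.0264, and 1.30, adjusted p = 0.0163). Pmvk levels in PVM-like cells of eWAT were 37.7 and 27.8 CPM in WT-Veh, 18.0 and 15.7 in ob/ob-Veh and 26.2 and 39.0 in ob/ob-Rosi. Its PVM-like levels in iWAT were 17.0 and 25.9, 13.7 and 10.7, and 22.2 and 29.9 CPM. The ob/ob-Veh libraries were the lowest in both depots. Without the iWAT library WT-Veh 1, which left 1 lean library, the ob/ob effects of Pmvk in iWAT were -1.29 in progenitor-like, -1.33 in PVM-like and -1.68 in EC-like cells.

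Of the regulators, Srebf1 alone was called in those fits or by DESeq2, in EC-like cells. Srebf1 (chr11:60199089-60222581, minus strand, GRCm38) fell there in eWAT from 52.9 and 57.7 CPM in WT-Veh to 20.9 and 27.3 in ob/ob-Veh, and it stood at 15.8 and 17.0 in ob/ob-Rosi. The 3 groups did not overlap, and WT-Veh was the highest. Markers of other cell types moved in these cells: 8 mural markers (of pericytes and smooth muscle) stood at 155.5 and 226.6 CPM in WT-Veh, 1548 and 1530 in ob/ob-Veh and 399.8 and 672.2 in ob/ob-Rosi. The 8 macrophage markers had 3070.5 and 2416, 1187 and 769.9, and 3127 and 2884 CPM, and the part of either in the Srebf1, Scd1 and Fasn values was not tested. The ob/ob effect was -1.28 (SE 0.271, 2.43-fold lower, adjusted p = 0.025), and the Rosi effect did not pass; against WT-Veh, the ob/ob-Rosi libraries were lower by 1.78 on the log2 scale (SE 0.276, adjusted p = 0.029). This was the 1 member call of ob/ob-Rosi against WT-Veh in eWAT, where 0.0606% of all genes over the 4 classes were called, and in iWAT, where 0.0629% were called, there was none (unadjusted p below 0.05: 2 of 124 member-by-class results in eWAT and 7 of 132 in iWAT, beside 3.29 and 4.79% of all tests; DESeq2 called 1 in each depot, beside 0.251 and 0.627%). Srebf1 in EC-like cells of iWAT had 57.9 and 80.1, 44.9 and 24.9, and 18.9 and 17.7 CPM, with an ob/ob effect of -1.41 (adjusted p = 0.0834) and a value for ob/ob-Rosi against WT-Veh of -1.91 (adjusted p = 0.0517).

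The Srebf1 call in eWAT was lost without WT-Veh 1 (-1.32, adjusted p = 0.112), WT-Veh 2 (-1.25, adjusted p = 0.11), ob/ob-Veh 1 (-1.15, adjusted p = 0.178) or ob/ob-Veh 2 (-1.47, adjusted p = 0.128), and that of ob/ob-Rosi against WT-Veh without WT-Veh 1 (-1.79, adjusted p = 0.144) or WT-Veh 2 (-1.73, adjusted p = 0.217). Both were lost with every cell thinned to 700 UMIs (-1.15, adjusted p = 0.21, and -1.60, adjusted p = 0.192). The size changed little in each case. Srebf2 was at 64.2 and 43.3 CPM in WT-Veh, 62.1 and 67.2 in ob/ob-Veh and 39.2 and 26.0 in ob/ob-Rosi in progenitor-like cells of eWAT, where its Rosi effect of -0.92 did not pass (adjusted p = 0.133). Insig1, itself a classic SREBP target, stood in PVM-like cells of eWAT at 73.6 and 71.9, 99.4 and 99.0, and 74.8 and 56.0 CPM, with both ob/ob-Veh libraries highest but no call (smallest adjusted p over all its eWAT tests 0.218). Insig1 in PVM-like cells of iWAT had 111.0 and 92.6, 104.4 and 156.8, and 82.2 and 50.5 CPM, and the groups overlapped. Scap and Insig2 moved by at most 0.65 in either effect, with no call.

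Over the 4 classes of both depots the largest change of a member was that of Scd1 in EC-like cells of eWAT, where Fasn was called as well. Scd1 (chr19:44394455-44407879, minus strand, GRCm38) is the main stearoyl-CoA desaturase of adipocytes, and it had 9.92 and 14.3 CPM in WT-Veh, 386.3 and 235.3 in ob/ob-Veh and 26.0 and 14.5 in ob/ob-Rosi. Both ob/ob-Veh libraries lay far above the other 4. Scd1 rose by 4.52 in the ob/ob effect (SE 0.397, 23.0-fold, adjusted p = 0.000113) and fell by 3.95 in the Rosi effect (SE 0.368, 15.5-fold, adjusted p = 0.000135). Both calls were kept without any one of the 6 libraries, at 4.09 to 4.87 and -4.32 to -3.51. Fasn (chr11:120805846-120824547, minus strand) had 6.62 and 8.00, 30.7 and 44.8, and 6.66 and 8.68 CPM in the same order. It rose by 2.25 (SE 0.364, 4.75-fold, adjusted p = 0.00579) and fell by 2.20 (SE 0.336, 4.58-fold, adjusted p = 0.00428). The Fasn rise missed the threshold without WT-Veh 1 (2.17, adjusted p = 0.0537), WT-Veh 2 (2.39, adjusted p = 0.0625) or ob/ob-Veh 2 (1.97, adjusted p = 0.0753), and its fall without ob/ob-Veh 2 (-1.92, adjusted p = 0.0598). With every cell thinned to 700 UMIs both were lost (1.99, adjusted p = 0.139, and -2.63, adjusted p = 0.0609).

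**Figure D4:**
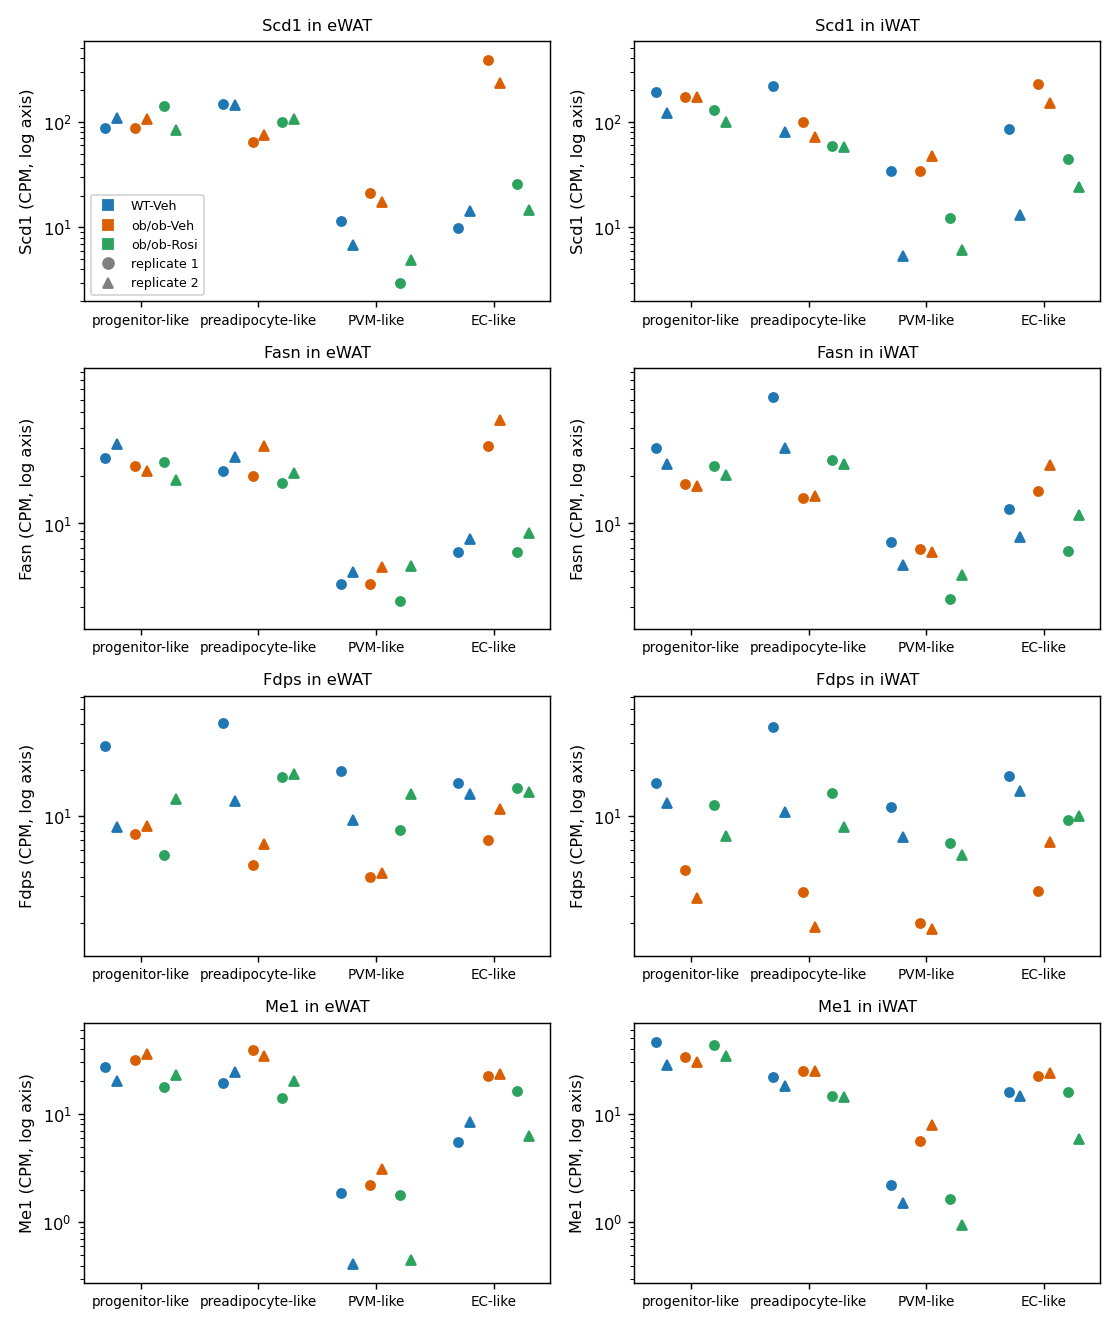
CPM of Scd1, Fasn, Fdps and Me1 in every library on log axes, by class, with eWAT on the left and iWAT on the right; colour is the group and symbol the replicate. In EC-like cells of eWAT the ob/ob-Veh points of Scd1 (386.3 and 235.3 CPM) and Fasn (30.7 and 44.8 CPM) stand above the rest, and in PVM-like cells of both depots those of Fdps are lowest.

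RNA of adipocytes moved with Scd1 in the same cells. The summed level of 8 adipocyte genes (Adipoq, Car3, Plin1, Cidec, Retn, Adig, Lep and Plin4) in EC-like cells of eWAT was 55.1 and 58.1 CPM in WT-Veh, 1190.9 and 1012.1 in ob/ob-Veh and 27.9 and 26.0 in ob/ob-Rosi. Car3 made up most of it, at 820.7 and 697.3 CPM in ob/ob-Veh. Of the 8 genes, Adig, Car3, Cidec, Retn, Adipoq and Plin4 rose there in the ob/ob effect, and all 8 had UMIs in the ob/ob-Veh cells. Plin1 was not called in these cells in the ob/ob effect, at 17.6 and 10.4 CPM in WT-Veh and 15.3 and 13.8 in ob/ob-Veh. Over the 4 classes of eWAT, 9 of 15 tests of these genes rose and 1 fell in the ob/ob effect. In the Rosi effect 9 fell. Of all gene-by-class tests, 5.29 and 4.77% were called. Adig and Retn stood at 4.24 CPM or less in EC-like cells outside ob/ob-Veh. Such genes could pass the filter on low counts through that group alone. In PVM-like cells of eWAT the sums were smaller and ordered alike, at 8.29 and 11.8, 58.1 and 64.4, and 3.87 and 3.59 CPM. Scd1 in PVM-like cells, 11.4 and 6.86, 21.1 and 17.3, and 2.98 and 4.93 CPM, followed that order, with a Rosi effect of -2.20 (SE 0.409, 4.59-fold lower, adjusted p = 0.0283) and an ob/ob effect of 0.96 that did not pass (adjusted p = 0.123; 0.98 with the block, adjusted p = 0.049). That Rosi call was lost without ob/ob-Veh 1 (-2.03, adjusted p = 0.125), ob/ob-Veh 2 (-2.39, adjusted p = 0.0544), ob/ob-Rosi 1 (-1.81, adjusted p = 0.0667) or ob/ob-Rosi 2 (-2.59, adjusted p = 0.109).

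Scd1 was also set against the adipocyte genes within each library. In the ob/ob-Veh libraries of eWAT there were 32.4 and 23.2 Scd1 UMIs per 100 adipocyte RNA UMIs in EC-like cells and 36.4 and 26.9 in PVM-like cells, a mean log2 ratio of EC-like over PVM-like of -0.19 (-0.70 against Adipoq alone). By the list of 8 genes the classes differed less than the libraries did. Per Adipoq UMI there were 5.23 and 5.26 Scd1 UMIs in EC-like and 7.94 and 9.18 in PVM-like cells, and the classes differed more than the libraries. In iWAT the same log2 ratio was -1.002 and -1.168. In preadipocyte-like cells of eWAT there were 199.4 and 211.3 Scd1 UMIs per 100 in ob/ob-Veh, well above both other classes. There NKT-like cells (with markers of T and NK cells) had 80.8 and 84.4, and cells named for dendritic cells 150 and 116.7. In WT-Veh of eWAT the ratios were 18 and 24.6 in EC-like and 137.5 and 57.9 in PVM-like cells. In ob/ob-Rosi they were 93.5 and 55.8, and 76.9 and 137.5. Both of these groups held few Scd1 UMIs, down to 9 in EC-like cells of WT-Veh 1. Fasn in ob/ob-Veh of eWAT had 2.58 and 4.42 UMIs per 100 in EC-like and 7.12 and 8.26 in PVM-like cells. The part of adipocyte RNA in these levels was not tested by the ratios.

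**Figure D5:**
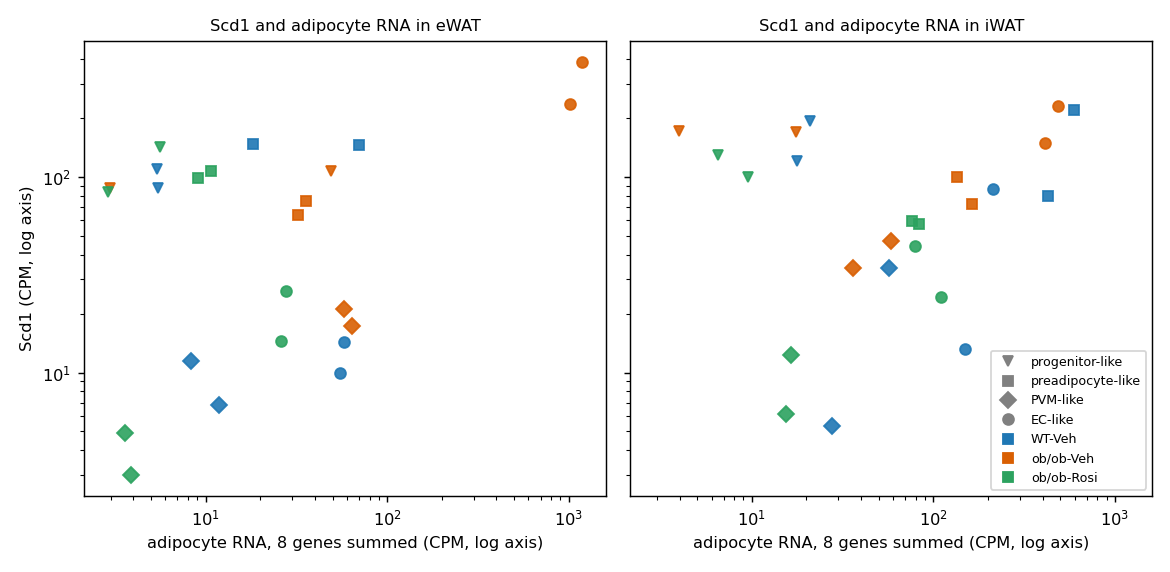
Scd1 CPM against the summed CPM of 8 adipocyte genes, both on log axes, with 1 point per library and class, colour for the group and symbol for the class. In EC-like cells of eWAT the 2 ob/ob-Veh points lie highest on both axes (1190.9 and 1012.1 CPM of adipocyte RNA), while preadipocyte-like cells of eWAT hold Scd1 at 64.0 CPM or more with at most 69.7 CPM of adipocyte RNA.

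Cells that held any UMI of the 8 adipocyte genes were then removed, a step chosen after seeing the data. In EC-like cells of eWAT this took away 180 of 242 and 395 of 571 cells of the ob/ob-Veh libraries, 33 of 388 and 98 of 558 of WT-Veh and 31 of 488 and 80 of 982 of ob/ob-Rosi, and the ob/ob-Veh cells left were the shallower ones (median 2600.5 and 3130 UMIs against 4567.5 and 4596 before). Scd1 in the remaining cells was at 9.95 and 12.4 CPM in WT-Veh, 49.0 and 66.0 in ob/ob-Veh and 12.4 and 11.7 in ob/ob-Rosi. Both calls held at a smaller size, 2.28 in the ob/ob effect (adjusted p = 0.00946) and -2.26 in the Rosi effect (adjusted p = 0.00759). For Fasn the groups then overlapped, at 4.98 and 8.13, 4.09 and 11.004, and 6.53 and 9.39 CPM, and neither call held (0.27, adjusted p = 0.876, and -0.06, adjusted p = 0.99). The Srebf1 fall was -1.44 in these cells and missed the threshold (adjusted p = 0.0651). A cell with no UMI of 8 genes may still hold RNA of adipocytes, whose part in the remaining Scd1 was not tested.

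In EC-like cells of iWAT, Scd1 had 86.4 and 13.1 CPM in WT-Veh, 230.8 and 149.6 in ob/ob-Veh and 44.2 and 24.2 in ob/ob-Rosi, while the 8 adipocyte genes summed to 211.8 and 149.9, 483.9 and 414.3, and 79.4 and 109.9. The ob/ob effect of 1.64 (adjusted p = 0.229) and the Rosi effect of -2.15 (adjusted p = 0.151) did not pass. Without the library WT-Veh 1, which left 1 lean library, they were 3.51 and -2.12. Without WT-Veh 2 the Rosi effect was -2.13. In PVM-like cells of iWAT Scd1 had 34.3 and 5.32, 34.3 and 47.2, and 12.3 and 6.13 CPM. Without WT-Veh 1 its ob/ob effect there was 2.67 and its Rosi effect -1.93. WT-Veh 1 was thus the higher of its pair in both classes, and leaving it out enlarged the ob/ob effect. Beside WT-Veh 1 alone, at 34.3 CPM in PVM-like cells, ob/ob-Veh stood at 34.3 and 47.2. In EC-like cells WT-Veh 1 was at 86.4 beside 230.8 and 149.6 in ob/ob-Veh. The 8 APC markers were higher in ob/ob-Veh in the EC-like cells too, at 1633 and 720.4 CPM in WT-Veh, 3827 and 2936 in ob/ob-Veh and 1247 and 1634 in ob/ob-Rosi, and their part in Scd1 was not tested.

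In the preadipocyte-like cells of eWAT the direction of Scd1 was the other way. It had 146.8 and 144.8 CPM in WT-Veh of eWAT, 64.0 and 75.2 in ob/ob-Veh and 98.9 and 106.7 in ob/ob-Rosi, with no overlap between the groups. The ob/ob effect was -1.14 (SE 0.237, 2.20-fold lower, adjusted p = 0.0162), while that of Rosi was 0.63 (adjusted p = 0.135). Without the cells that held adipocyte RNA the fall was -1.03 (adjusted p = 0.0325). The call was lost without WT-Veh 1 (-1.05, adjusted p = 0.121), WT-Veh 2 (-1.21, adjusted p = 0.0592), ob/ob-Veh 1 (-1.14, adjusted p = 0.192) or ob/ob-Veh 2 (-1.18, adjusted p = 0.141), and after thinning every cell to 700 UMIs (-0.90, adjusted p = 0.0932). Macrophage markers, which were lowest in ob/ob-Veh in these cells too, had 1132 and 839, 156 and 216.8, and 835.9 and 892.2 CPM, and their part was not tested. The 10 preadipocyte markers moved in the same order as Scd1, at 14314 and 14201, 4927 and 6463, and 11248 and 11676 CPM. This shift within the class was not tested either. In preadipocyte-like cells of iWAT Scd1 had 220.4 and 79.9 CPM in WT-Veh, 100.4 and 72.5 in ob/ob-Veh and 59.5 and 57.3 in ob/ob-Rosi, with an ob/ob effect of -0.77 (adjusted p = 0.389) that was 0.081 without WT-Veh 1 and a Rosi effect of -0.56 (adjusted p = 0.486). In progenitor-like cells of eWAT Scd1 lay between 83.7 and 141.8 CPM in all 6 libraries, and the groups overlapped. Scd2, the close relative of Scd1, was not called in the same edgeR fits: in EC-like cells of eWAT it had 39.7 and 82.0, 27.9 and 53.4, and 85.4 and 68.0 CPM. Its ob/ob effects lay between -0.69 and 0.57 over the 8 depot-class pairs, and its Rosi effects between -0.68 and 0.93. Without WT-Veh 1 the ob/ob effect of Scd2 in PVM-like cells of iWAT was 1.65. In EC-like cells of eWAT its Rosi effect passed in edgeR with the block (0.98, adjusted p = 0.0287).

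Me1 fell in the Rosi effect in 2 classes. In preadipocyte-like cells of eWAT Me1 (chr9:86581371-86695953, minus strand, GRCm38) had 19.2 and 24.5 CPM in WT-Veh, 39.1 and 34.5 in ob/ob-Veh and 14.1 and 20.1 in ob/ob-Rosi, with ob/ob-Veh above both other groups. The Rosi effect was -1.04 (SE 0.273, 2.05-fold lower, adjusted p = 0.0427), and the ob/ob effect of 0.70 did not pass (adjusted p = 0.158). In PVM-like cells of iWAT the levels were 2.19 and 1.51, 5.60 and 7.99, and 1.63 and 0.949 CPM, again highest in ob/ob-Veh. There the Rosi effect was -2.23 (SE 0.478, 4.68-fold lower, adjusted p = 0.0305) and the ob/ob effect 1.75 (adjusted p = 0.0764). The 8 APC markers were highest in ob/ob-Veh in these cells too, at 406.9 and 351.3 CPM in WT-Veh, 3802 and 3306 in ob/ob-Veh and 1313 and 1105 in ob/ob-Rosi, while Me1 itself was far higher in APCs than in PVM-like cells. The part of APC RNA in the Me1, Scd1 and Scd2 values of PVM-like cells of iWAT was not tested. Both calls were lost with cells thinned to 700 UMIs (-1.32, adjusted p = 0.0566, in eWAT and -1.81, adjusted p = 0.149, in iWAT) and depended on single libraries: in eWAT it was lost without any one of the 6 libraries (-1.32 to -0.81, adjusted p 0.0586 to 0.357), and in iWAT without ob/ob-Veh 1 (-2.41, adjusted p = 0.225), ob/ob-Veh 2 (-2.01, adjusted p = 0.162), ob/ob-Rosi 1 (-2.59, adjusted p = 0.067) or ob/ob-Rosi 2 (-1.90, adjusted p = 0.243). Me1 in EC-like cells of eWAT stood at 5.51 and 8.34, 22.3 and 23.5, and 16.4 and 6.26 CPM, beside the adipocyte RNA given above, with an ob/ob effect of 1.54 (adjusted p = 0.08; 1.49 with the block, adjusted p = 0.0181).

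The other fatty acid enzymes had no call in the same edgeR fits. Fasn in preadipocyte-like cells of iWAT had 62.8 and 30.0 CPM in WT-Veh, 14.5 and 14.8 in ob/ob-Veh and 25.1 and 23.6 in ob/ob-Rosi, with no overlap of the groups, and an ob/ob effect of -1.61 that did not pass (adjusted p = 0.0865). DESeq2 called it (-1.66, adjusted p = 0.0132), as did edgeR with the block (-1.54, adjusted p = 0.0207), and without WT-Veh 1 it was -1.07. The 8 adipocyte genes summed to 591.75 and 430.5 CPM in WT-Veh, 135.7 and 162.2 in ob/ob-Veh and 76.4 and 83.1 in ob/ob-Rosi in the same cells, where Plin1 (-5.39, adjusted p = 0.0128) and Adipoq (-6.62, adjusted p = 0.0241) fell in the ob/ob effect. Without the cells holding a UMI of these genes Fasn stood at 29.4 and 26.7, 14.9 and 14.008, and 25.3 and 23.4 CPM, with an ob/ob effect of -0.97 (adjusted p = 0.203). Elovl6, which elongates palmitate, had effects of 1.08 (ob/ob) and -1.12 (Rosi) in preadipocyte-like cells of eWAT that passed with the block (1.18, adjusted p = 0.0275, and -1.19, adjusted p = 0.0213). Acly passed there in the Rosi effect in DESeq2 (-0.83, adjusted p = 0.023) and with the block (-0.85, adjusted p = 0.022). In progenitor-like, preadipocyte-like and PVM-like cells of eWAT the fitted ob/ob effect of Fasn lay between -0.40 and -0.0026 with no call. Over the fatty acid members as a whole, the sum in EC-like cells of eWAT was 314.2 and 399.1 CPM in WT-Veh, 771.9 and 687.6 in ob/ob-Veh and 392.5 and 342.7 in ob/ob-Rosi, of which Scd1 made up 386.3 and 235.3 in ob/ob-Veh. In PVM-like cells of eWAT the 6 sums lay between 162.7 and 234.3 CPM and the groups overlapped.

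The 2 depots were compared by the difference of their effects, iWAT minus eWAT, fitted over all 12 libraries. No member was called in the depot difference of the ob/ob effect or of the Rosi effect in any class, where 0.703 and 0.451% of all gene-by-class tests were called (edgeR). At an unadjusted p below 0.05 there were 0, 7, 0 and 2 members in progenitor-like, preadipocyte-like, PVM-like and EC-like cells in the ob/ob contrast, beside 11, 9.06, 10.4 and 4.27% of all genes, of 34, 34, 33 and 32 members tested. There were 3, 3, 1 and 0 in the Rosi contrast, beside 12.7, 8.79, 9.13 and 3.69%, and DESeq2 called none. Effects that were called in one depot alone, such as Fasn in EC-like cells, are therefore not shown to differ between depots.

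The remaining genes of the pathways were followed as lists. No gene was called in either effect among 8 further sterol synthesis and uptake genes (23 gene-by-class tests in eWAT, 24 in iWAT) or among 8 further genes of SREBP processing such as Mbtps1, the site-1 protease (32 tests in each depot). Of all gene-by-class tests, 5.29 and 4.77% were called in eWAT (ob/ob and Rosi effect) and 2.14 and 3.88% in iWAT. At such shares lists of this size hold few calls or none. Of 20 further genes of fatty acid and triglyceride synthesis, Dgat2, which makes triglycerides, rose in EC-like cells of eWAT in the ob/ob effect by 2.65 (adjusted p = 0.0446) and in PVM-like cells of iWAT in the Rosi effect by 2.00. In EC-like cells of eWAT Dgat2 stood at 22.3 and 12.9 CPM in ob/ob-Veh and at 5.25 or less in the other 4 libraries, and the adipocyte RNA there was highest in ob/ob-Veh as well.

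Some genes of sterol export fell in eWAT of ob/ob-Veh. Of 10 genes that encode LXR, its targets or carriers of sterol out of cells, 10 of 36 gene-by-class tests fell and none rose in the eWAT ob/ob effect, and 7 rose and 1 fell in the Rosi effect, where 5.29 and 4.77% of all gene-by-class tests were called. The 10 falls came from 4 genes, Apoe in 4 classes, Abcg1 in 3, Smpdl3a in 2 and Mylip in 1, and the other 26 tests did not pass. In iWAT none of 36 tests was called in the ob/ob effect and 1 rose in the Rosi effect, where 2.14 and 3.88% of all gene-by-class tests were called. Apoe, the apolipoprotein that carries exported sterol, fell in all 4 classes of eWAT, with ob/ob effects of -3.93 in progenitor-like, -2.30 in preadipocyte-like, -1.84 in PVM-like and -1.90 in EC-like cells. In progenitor-like cells it stood at 3191.8 and 2348.2 CPM in WT-Veh, 148.5 and 228.3 in ob/ob-Veh and 1910.0 and 1611.1 in ob/ob-Rosi. Apoe is one of 10 markers used to tell preadipocyte-like from progenitor-like cells, so its level within the APC classes is partly set by the naming. It is far higher in PVM-like cells (10843 to 41338 CPM in eWAT), and 8 macrophage markers were lowest in ob/ob-Veh in the progenitor-like cells too, at 993.75 and 798.7, 153.2 and 225.7, and 806.7 and 1021 CPM; their part in the Apoe values was not tested. Abcg1, a sterol exporter, had 13.9 and 21.1, 1.02 and 1.13, and 10.6 and 9.67 CPM in preadipocyte-like cells of eWAT and fell by 4.07 (adjusted p = 0.000262), then was higher by 3.29 in the Rosi effect (adjusted p = 0.000561). The 8 macrophage markers moved in the same order in that class, at 1132 and 839, 156 and 216.8, and 835.9 and 892.2 CPM. Their part in the Abcg1 values was not tested. In that class edgeR called Fdps and Scd1 alone of the synthesis set in the ob/ob effect without the block, and DESeq2 called Cyp51 and Mvk too. In the depot difference, Apoe (4.09 in the ob/ob effect and -3.02 in the Rosi effect) and Abcg1 (-3.91 in the Rosi effect) were called in progenitor-like cells.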

How the data were processed

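UMI counts of 12 libraries were used as the authors deposited them: per the labels and the study's methods, reads were demultiplexed, aligned to mm10 and counted per gene and cell barcode with Cell Ranger 3.0.2, and all libraries were processed and sequenced together. The counts are not normalized. The iWAT files held no cell above 22000 UMIs or 25% mitochondrial counts before any filter of this work. Cells with 700 to 22000 UMIs, 200 to 6000 genes and under 25% mitochondrial counts were kept here, the limits that the study states. Doublets were kept; Scrublet marked 1.112 to 12.27% of a library, in 2 libraries by its expected rate.

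Each depot was clustered with scanpy 1.11.5 (2000 variable genes without the members, 25 principal components, 20 neighbours, Leiden resolution 1; APCs again with 15 components and 0.6). Clusters were named from marker lists. UMIs were summed per library and class with at least 20 cells and compared with edgeR 4.0.16 (TMM, filterByExpr, quasi-likelihood test over all genes, 3 residual degrees of freedom); DESeq2 1.42.0 was an alternative. The self-test of the scripts ran on simulated data. The members and all lists were chosen with earlier results of these data known. Every called member is named, as are Hmgcs1, Sqle, Insig1, Srebf1, Srebf2, Fasn, Scd1 and Scd2. Gene positions come from GENCODE annotation of GRCm38 and promoter sequences from RefSeq, both supplied with the data. Alternatives were DESeq2, scaling by library size alone, no filter on low counts, doublets removed, cells thinned to 700 UMIs, APCs assigned singly, members kept for clustering, a replicate block, each library left out and, added after seeing the data, cells holding adipocyte RNA removed. Counts are of molecules, but p-values measure only the spread between 2 mice a group.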

Additional observations from a re-analysis of the deposited data

How the results depend on the processing

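The counts of member-by-class calls moved with the settings. The eWAT ob/ob effect, with 6 calls, gave 10 with DESeq2, 2 with cells thinned to 700 UMIs, 17 without the filter on low counts and 1 to 11 with a library left out. The eWAT Rosi effect, with 4, gave 2 when thinned, 14 without the filter and 1 to 5 with a library left out. The iWAT ob/ob effect, with 1, gave 5 with DESeq2, 20 without the filter and 0 to 13 with a library left out, and the iWAT Rosi effect, with 2, gave 6, 13 and 0 to 11. The depot difference, with 0, gave 6 in the ob/ob effect and 3 in the Rosi effect without the filter, and 0 to 1 and 0 with a library left out. For ob/ob-Rosi against WT-Veh, eWAT went from 1 to 0 when thinned and 0 to 1 with a library left out, and iWAT from 0 to 1 with DESeq2, 1 with members kept for clustering, 3 without the filter and 0 to 4 with a library left out. The shares of all gene-by-class tests called moved too: for the eWAT ob/ob and Rosi effects they were 5.34 and 3.93% when thinned, 7.22 and 6.78% without the filter and 1.65 to 8.44% and 1.89 to 9.95% with a library left out, against 5.29 and 4.77%. In iWAT they were 7.2 and 8.91% without the filter and 0.142 to 11.2% and 0.0535 to 13.8% with a library left out, against 2.14 and 3.88%. For the depot difference they were 2.17 and 1.64% without the filter and 0.135 to 0.885% and 0.0962 to 0.683% with a library left out, against 0.703 and 0.451%. For ob/ob-Rosi against WT-Veh they were 0.0562% when thinned and 0 to 0.109% with a library left out in eWAT, against 0.0606%, and in iWAT 0.627% with DESeq2, 0.0795% with members kept for clustering, 1.23% without the filter and 0 to 1.42% with a library left out, against 0.0629%. The causes were not tested, except that thinning leaves fewer UMIs and the missing filter adds genes of few counts. The Scd1 log2 ratio of EC-like to PVM-like cells moved from -0.187 to -0.704 in eWAT and from -1.085 to -1.259 in iWAT with Adipoq alone. Scaling by library size alone moved the median of all genes by up to 0.267 in the ob/ob effect and -0.269 in the Rosi effect (EC-like cells of iWAT). For 135 results (each called member, and Hmgcs1, Sqle, Insig1, Srebf1, Srebf2, Fasn, Scd1 and Scd2 in every class), 2002 values were recomputed. Of these, 1913 kept direction and side of the threshold, 51 lost a call, 38 gained one and 0 reversed while called. Most of the 135 results were not called to begin with and could keep their side by staying uncalled. The number kept therefore does not measure how firmly the calls held. Gains of the other members are in the counts given first.

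The labels do not say that a replicate number marks a shared batch or mouse. Deviations of same-numbered libraries correlated at 0.143 to 0.447 in eWAT and 0.0546 to 0.71 in iWAT, where WT-Veh with ob/ob-Rosi gave the highest values. With a replicate block the calls were 16 and 15 in eWAT (ob/ob and Rosi effect), beside 12.8 and 12% of all gene-by-class tests. In iWAT they were 7 and 9, beside 7.21 and 12.1%. For ob/ob-Rosi against WT-Veh there was 1 call in each depot, beside 0.536% in eWAT and 0.304% in iWAT. Depth limits the low members: in groups of 2 libraries a change of a gene at a few CPM rests on few UMIs.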

Other observations

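Among the classes outside the comparisons above, NKT-like cells of eWAT (cells with markers of T and NK cells) had 2 called members of 29 tested in each effect, beside 5.5 and 4.77% of all genes. In eWAT the cells named for lipid-associated macrophages, dendritic cells, B cells and mesothelium had no member call in either effect. Nor had those for lipid-associated macrophages, T and NK cells, and B cells in iWAT. In these fits 0 to 3.82% of all genes were called. No class named here was refitted with DESeq2, another setting or a library left out. In NKT-like cells of eWAT Fdps had an ob/ob effect of -2.80 (SE 0.521, edgeR adjusted p = 0.00762) and a Rosi effect of 2.36 (adjusted p = 0.0251). Elovl5 had an ob/ob effect of 1.63 (adjusted p = 0.0152) and a Rosi effect of -1.66 (adjusted p = 0.0176). The fatty acid members summed to 208.3 and 194.2 CPM in WT-Veh, 357.8 and 356.9 in ob/ob-Veh and 223.1 and 166.8 in ob/ob-Rosi in these cells, with ob/ob-Veh above both other groups. The 8 adipocyte genes were highest in ob/ob-Veh there as well, at 6.41 and 10.4 CPM in WT-Veh, 15.96 and 24.9 in ob/ob-Veh and 0 and 7.32 in ob/ob-Rosi, and their part was not tested. The limit on Fdps counts given in the report holds here too.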
